A study of Homo sapiens with 24 samples.

Results

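Genes of cholesterol synthesis and its transcriptional control were followed over all groups of this RNA-seq series of ovarian carcinoma cells. The genes were taken by symbol: SREBF1, SREBF2, INSIG1, HMGCS1, IDI1, FDFT1, SQLE and DHCR7, which are 8 of the 63299 genes in the count table. All 8 passed the filter on low counts, with between 194 and 3606 counts per library. None of them is a receptor that takes up cholesterol, so they are called sterol synthesis and SREBP genes here.

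A2780 is a platinum-sensitive ovarian carcinoma cell line, and A2780cis is the platinum-resistant line derived from it, which was kept resistant by regular cisplatin in its culture medium. Cells of each line were treated with 5-FdU-ECyd at 1 µM or left untreated and were harvested after 6 h or 12 h. 5-FdU-ECyd is a conjugate of the nucleoside analogues 2'-deoxy-5-fluorouridine and 3'-C-ethynylcytidine. This gave 8 groups with 3 libraries each and between 11077368 and 21901406 counts per library. The study used 1 sensitive line and 1 resistant line, so what differs between the lines cannot be told apart from what differs between these cultures. The study describes the replicates as biological ones, and how they were cultured is not stated in the labels, so the p-values measure the spread between these libraries. Of 8 epithelial and ovarian markers, PAX8, WT1, KRT7, MUC16 and CDH1 had at most 3 counts in each of the 24 libraries, while KRT18 reached 28.4 CPM (counts relative to the library total), KRT8 6.8 CPM and EPCAM 1.96 CPM. The 8 markers summed to 2.09 to 6.52 CPM in A2780 and to 25.1 to 35.8 CPM in A2780cis, and in A2780 the sums were higher in treated libraries, at 3.58 to 4.91 against 2.09 to 3.22 CPM at 6 h and at 5.39 to 6.52 against 3.36 to 4.36 CPM at 12 h. The 7 genes of the immune list summed to at most 8.57 CPM in a library, and 3 of them (PTPRC, CD3E and CD14) had at most 3 counts in any library. The 8 genes of the fibroblast list summed to 294 to 461 CPM in A2780 and to 1400 to 2240 CPM in A2780cis, most of it from COL3A1. In both lines at 12 h these sums were lower in the treated libraries, at 354 to 381 CPM against 435 to 461 CPM and at 1400 to 1470 CPM against 1960 to 2220 CPM, whereas at 6 h the treated libraries were higher in A2780 (367 to 441 against 294 to 366 CPM) and lower in A2780cis (1640 to 1860 against 1940 to 2240 CPM). Whether any of these lists has a part in the results below was not tested.

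As background, cells build cholesterol from acetyl-CoA through mevalonate, squalene and lanosterol. SREBF1 and SREBF2 encode the membrane-bound transcription factors SREBP-1 and SREBP-2, which are cleaved and sent to the nucleus when sterols are scarce. SREBP-2 mainly drives genes of cholesterol synthesis, and the SREBP-1c form of SREBP-1 mainly drives genes of fatty acid synthesis. INSIG1 encodes a protein of the endoplasmic reticulum that holds the SREBP precursors back when sterols are plentiful, and it is itself a target of SREBP. HMGCS1 makes the HMG-CoA from which mevalonate is formed, IDI1 interconverts the isoprenoid units, FDFT1 joins farnesyl units into squalene, SQLE oxidises squalene and DHCR7 carries out a last step to cholesterol.

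SREBP binds sterol regulatory elements, usually with NF-Y at a CCAAT box or Sp1 at a GC box nearby. RefSeq promoter windows (GRCh38.p14, 250 bases before to 50 bases after a start) were at hand for 6 of the 8 genes. The 4 windows shown are those of both SREBP genes, of INSIG1 as a target gene and of IDI1, the gene that moved against the others, with capitals marking matches to TCACNCCAC, a form of the sterol regulatory element, and to CCAAT, on either strand. The other windows, further ones of IDI1 among them, matched only CCAAT or GC box letters, or none.
SREBF2 (chr22:41832855-41833154, plus strand): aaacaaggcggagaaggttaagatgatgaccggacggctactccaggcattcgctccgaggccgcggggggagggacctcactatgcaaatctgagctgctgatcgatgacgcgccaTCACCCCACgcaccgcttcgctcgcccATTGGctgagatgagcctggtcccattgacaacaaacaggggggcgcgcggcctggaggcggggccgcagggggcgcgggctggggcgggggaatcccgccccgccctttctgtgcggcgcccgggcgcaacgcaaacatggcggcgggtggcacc
SREBF1 (chr17:17836937-17837236, minus strand): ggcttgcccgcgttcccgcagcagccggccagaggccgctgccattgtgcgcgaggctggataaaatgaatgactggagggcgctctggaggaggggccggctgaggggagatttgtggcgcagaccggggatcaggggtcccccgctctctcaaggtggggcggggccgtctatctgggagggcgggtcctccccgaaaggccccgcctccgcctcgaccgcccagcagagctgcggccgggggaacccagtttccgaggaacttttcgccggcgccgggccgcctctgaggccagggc
INSIG1 (chr7:155297628-155297927, plus strand): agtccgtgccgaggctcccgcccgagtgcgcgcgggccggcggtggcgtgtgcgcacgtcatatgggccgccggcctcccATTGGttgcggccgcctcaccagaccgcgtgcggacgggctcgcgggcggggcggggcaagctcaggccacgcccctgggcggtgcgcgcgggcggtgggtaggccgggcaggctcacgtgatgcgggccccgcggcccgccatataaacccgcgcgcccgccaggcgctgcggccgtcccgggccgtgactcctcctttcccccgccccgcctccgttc
IDI1 (chr10:1048837-1049136, minus strand): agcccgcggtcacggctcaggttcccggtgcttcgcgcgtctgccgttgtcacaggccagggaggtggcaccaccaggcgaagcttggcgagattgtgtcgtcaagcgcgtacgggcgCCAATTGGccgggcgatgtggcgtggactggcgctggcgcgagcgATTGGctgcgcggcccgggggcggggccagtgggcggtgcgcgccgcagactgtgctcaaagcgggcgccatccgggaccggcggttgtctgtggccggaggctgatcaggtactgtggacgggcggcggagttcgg

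The sterol regulatory element TCACNCCAC matched in 1 of the 6 genes, SREBF2, where TCACCCCAC began 133 bases before the start and a CCAAT box on the other strand began 106 bases before it. These letters occurred in 1.13% of all 35116 windows of the table, and in any window of 1.39% of the genes with one. A CCAAT box was found in 5 of the 6 genes, all but SREBF1, against 39.7% of the 27305 genes with a window. The GC box GGGCGG was found in 6 of 6 genes against 48.3% of genes. In the pathway lists described below, the GC box was found in 50% to 100% of genes with a window. For the CCAAT box these shares were 16.7% to 80%. The E-box CACGTG was found in INSIG1 alone of the 6, against 8.77% of genes. A match describes these letters and is not evidence of binding.

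Both SREBP genes also hold a microRNA of the miR-33 family in an intron, known as a repressor of cholesterol efflux. The mature 5p forms are shown because they share a seed (bases 2 to 8, in capitals).
hsa-miR-33b-5p (in SREBF1, chr17:17813897-17813916, minus strand): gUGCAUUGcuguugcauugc
hsa-miR-33a-5p (in SREBF2, chr22:41900949-41900969, plus strand): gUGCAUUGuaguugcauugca
Their own rows in the count table reached at most 2 counts for MIR33B and 1 count for MIR33A, so no change in them could be read from these total RNA libraries.

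The genes lie apart from each other in GRCh38 (gene models of GENCODE 44). SREBF1 (ENSG00000072310.16) is at chr17:17810399-17837002 on the minus strand and SREBF2 (ENSG00000198911.11) at chr22:41833105-41907306 on the plus strand. INSIG1 (ENSG00000186480.12) spans chr7:155297776-155310235 on the plus strand. HMGCS1 (ENSG00000112972.14) lies at chr5:43287470-43313512 and IDI1 (ENSG00000067064.10) at chr10:1039152-1049119, both on the minus strand. FDFT1 (ENSG00000079459.12) and SQLE (ENSG00000104549.11) share a chromosome but not an arm, at chr8:11795573-11839395 and chr8:124998497-125022283, both on the plus strand. DHCR7 (ENSG00000172893.15) is at chr11:71428193-71452868 on the minus strand. Exons of 5 of the genes overlap a gene on the other strand. For SREBF1 this is the protein-coding RAI1, over 6.75% of its exon bases, and its part in the SREBF1 counts was not examined. For the others it is an lncRNA. Whether reads there counted for both genes is not known, since the strand setting of the counting is not given. The counts of these lncRNAs are described with SREBF2.

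Levels are given as CPM, a gene's count relative to the total of its library after scaling with TMM factors. Per kilobase of exon, FDFT1 was the highest of the 8 genes in 7 of the 8 groups, with 42.9 ± 4.57 CPM per kb (SD, n = 3) in untreated A2780 at 6 h, where its libraries overlapped those of IDI1. In A2780 treated for 12 h IDI1 was above it, at 30.7 ± 4.84 against 21.9 ± 1.81 CPM per kb, with no overlap. SREBF1 was the lowest in every group, from 2.37 ± 0.205 CPM per kb in untreated A2780cis at 6 h to 7.79 ± 0.366 CPM per kb in untreated A2780 at 12 h. In all 4 groups at 12 h except treated A2780cis, the libraries of SREBF1 overlapped those of the next gene in the order. SREBF2 was above SREBF1 in every group, at 9.50 ± 1.05 against 4.01 ± 1.05 CPM per kb in untreated A2780 at 6 h. The length used is that of all annotated exons of a gene together, 8234 bases for SREBF1 and 3650 for INSIG1, so the order depends on it. In CPM alone INSIG1 was below SREBF1 in untreated A2780 at 12 h (30.6 against 64.2) and above it in untreated A2780cis at 6 h (21.1 against 19.5). The order of the enzymes differed between the lines. In untreated A2780 at 6 h IDI1 (37.7 ± 1.94) stood above HMGCS1 (25.2 ± 1.98) and SQLE (17.0 ± 0.334), whereas in untreated A2780cis SQLE (30.1 ± 2.68) stood above IDI1 (17.1 ± 1.60) and HMGCS1 (13.4 ± 1.26), all in CPM per kb and without overlap between neighbours.

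**Figure D1:**
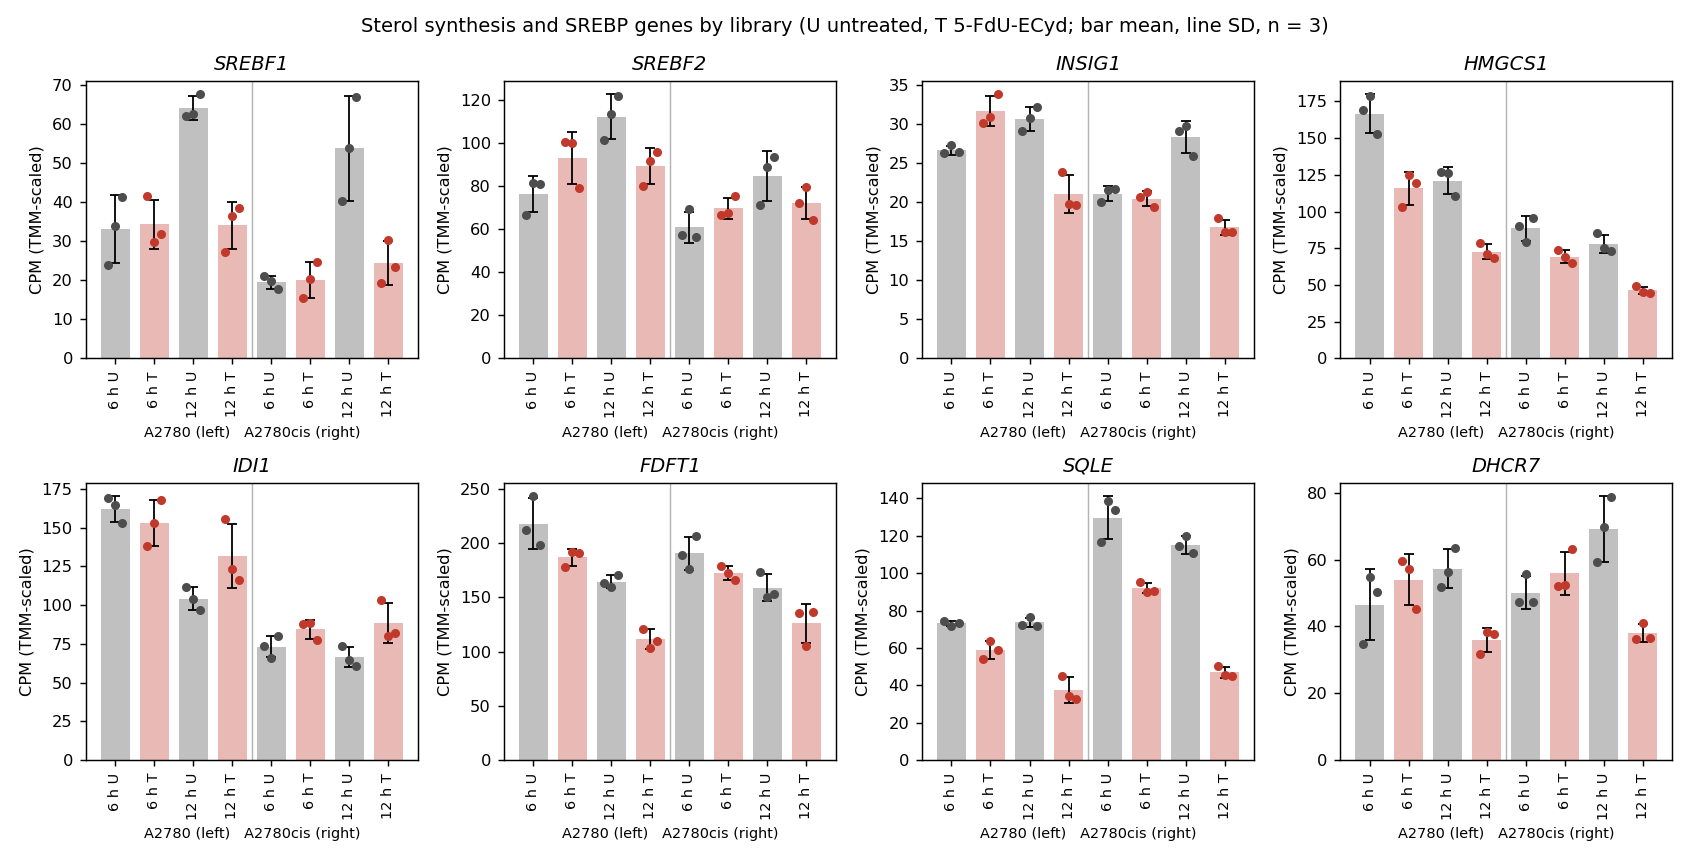
CPM (TMM-scaled, linear axis from 0) of each of the 8 genes in each library (points), with the group mean (bar) and SD (line, n = 3). U is untreated and T is 5-FdU-ECyd, with A2780 left and A2780cis right of the grey line. At 12 h the treated points lie below the untreated points for all genes except IDI1, where they lie above, and SREBF2 in A2780cis, where they overlap.

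The first question was what 5-FdU-ECyd did to these genes in each line. After 12 h 7 of the 8 genes were down-regulated and 1 was up-regulated in A2780, and 6 were down-regulated and 1 up-regulated in A2780cis (edgeR's quasi-likelihood test, Benjamini-Hochberg adjusted p of at most 0.05 over 20240 genes). Over all tested genes, 26.1% were called lower and 28.6% higher in A2780, and 28.9% lower and 31% higher in A2780cis. The median log2 FC of the 8 genes was -0.616 in A2780 and -0.75 in A2780cis, beside 0.0155 and 0.037 over all genes. The genes were chosen with earlier results of these data known, so the excess over all genes is a description and not independent support. All 8 genes in A2780 and 7 in A2780cis had treated libraries that did not overlap the untreated ones, which held for 64% and 59.6% of all genes. In bulk RNA a lower level in each cell and fewer cells that express a gene cannot be told apart, and CPM gives a share of the library rather than an amount per cell.

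SQLE, the squalene epoxidase, fell most by log2 FC in both lines. In A2780cis it stood at 114, 120.0 and 111 CPM without and at 50.4, 45.5 and 44.8 CPM with 5-FdU-ECyd at 12 h. That was 0.408 of the untreated level (log2 FC -1.29, SE 0.0986, adjusted p = 3.08e-11). In A2780 it went from 72.5, 76.4 and 71.9 CPM to 45.3, 34.5 and 32.6 CPM (log2 FC -0.98, SE 0.0993, adjusted p = 7.28e-09). Treated and untreated libraries lay far apart in both lines, and the highest treated value came from the first replicate each time.

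SREBF1, the gene of SREBP-1, came next. Untreated A2780 at 12 h held 62.2, 62.7 and 67.6 CPM and treated A2780 27.3, 36.5 and 38.4 CPM (log2 FC -0.91, SE 0.195, adjusted p = 0.000306). In A2780cis the untreated libraries at 12 h spread widely, at 40.4, 53.9 and 67.0 CPM, and the treated ones held 19.3, 30.4 and 23.4 CPM (log2 FC -1.14, SE 0.198, adjusted p = 2.22e-05). Even the lowest untreated library of A2780cis was above the highest treated one. The treated libraries at 12 h had levels like those of both groups at 6 h, where the means were 33.0 and 34.4 CPM in A2780 and 19.5 and 20.1 CPM in A2780cis. Such a comparison of levels across the times has a limit that is given with the untreated cells below.

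DHCR7, of the last steps, and INSIG1, the sterol-sensing brake on SREBP, fell in both lines as well. DHCR7 was at 51.9, 56.2 and 63.5 CPM in untreated and 31.8, 38.3 and 37.8 CPM in treated A2780 at 12 h (log2 FC -0.67, SE 0.143, adjusted p = 0.000302). In A2780cis it was at 59.2, 69.7 and 78.8 CPM and at 36.1, 41.1 and 36.6 CPM (log2 FC -0.87, SE 0.143, adjusted p = 1.04e-05). No treated library reached an untreated one. INSIG1 fell from 29.0, 30.7 and 32.1 CPM to 23.9, 19.7 and 19.7 CPM in A2780 (log2 FC -0.54, SE 0.0961, adjusted p = 3.28e-05). A2780cis held 29.1, 29.7 and 25.9 CPM of it without and 17.9, 16.2 and 16.2 CPM with treatment (log2 FC -0.75, SE 0.0976, adjusted p = 3.12e-07). Its untreated levels at 12 h were close in both lines, and its treated levels at 12 h lay below every untreated library of the same line at 6 h and 12 h.

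HMGCS1, at the entry to the pathway, fell by nearly the same log2 FC in both lines from different levels. Its libraries went from 127, 126 and 110.3 CPM to 78.6, 71.1 and 68.5 CPM in A2780 (log2 FC -0.74, SE 0.0951, adjusted p = 3.72e-07). A2780cis held 85.2, 75.5 and 73.3 CPM without and 49.1, 45.4 and 44.9 CPM with treatment (log2 FC -0.75, SE 0.0968, adjusted p = 3.02e-07). FDFT1, the squalene synthase, went from 163, 159 and 171 CPM to 121, 103 and 109.9 CPM in A2780 (log2 FC -0.56, SE 0.1004, adjusted p = 3.63e-05). In A2780cis FDFT1 went from 174, 150.2 and 153 CPM to 136, 105 and 137 CPM (log2 FC -0.34, SE 0.1002, adjusted p = 0.00538), and without the second treated replicate this call was lost (log2 FC -0.22, adjusted p = 0.0554). The difference between the lines for FDFT1 did not pass (0.23, 95% interval -0.07 to 0.53, adjusted p = 0.260).

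IDI1 moved the other way. Untreated A2780 at 12 h held 112, 104 and 97.1 CPM and treated A2780 155, 124 and 116 CPM (log2 FC 0.34, SE 0.113, adjusted p = 0.0137). In A2780cis the values were 73.4, 64.8 and 60.9 CPM against 103, 80.2 and 82.3 CPM (log2 FC 0.41, SE 0.114, adjusted p = 0.00288). The first treated replicate was the highest in each line. Without it the log2 FC was 0.19 (adjusted p = 0.164) in A2780 and 0.26 (adjusted p = 0.059) in A2780cis, and without the third untreated replicate it was 0.28 (adjusted p = 0.0711) in A2780, so the rise of IDI1 depended on single libraries.

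SREBF2, the gene of SREBP-2, changed least among the genes that fell. It was at 101, 113 and 122 CPM in untreated and 80.1, 92.0 and 96.1 CPM in treated A2780 at 12 h (log2 FC -0.33, SE 0.119, adjusted p = 0.0215). In A2780cis the untreated libraries at 71.4, 89.2 and 93.6 CPM and the treated ones at 72.5, 79.5 and 64.6 CPM overlapped (log2 FC -0.23, SE 0.120, adjusted p = 0.101). The call in A2780 was lost without the first treated replicate (log2 FC -0.27, adjusted p = 0.0896), without the third untreated one (log2 FC -0.27, adjusted p = 0.094) and when libraries were scaled by their size alone (log2 FC -0.10, adjusted p = 0.534), a scaling that moved the median log2 FC of all genes at 12 h to 0.238 in A2780 and 0.145 in A2780cis. Relative to that shift SREBF2 was still below the typical gene.

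An lncRNA on the other strand, SREBF2-AS1, overlaps 9.08% of the exon bases of SREBF2. A read there could count for both genes if the counting ignored strand, which is not stated. The counts of SREBF2-AS1 came to 3.58% to 4.43% of those of SREBF2 in untreated A2780 at 12 h and to 12.1% to 17.3% in treated A2780. In A2780cis the shares were 6.86% to 8.29% and 14.1% to 20.9%. The groups did not overlap in either line. An alternative chosen after seeing the data took off all counts of overlapping lncRNAs, not only those from shared bases. With it SREBF2 was called lower in A2780cis too (log2 FC -0.39, adjusted p = 0.0117). For HMGCS1 the share of the overlapping lncRNA was 13.7% to 19% and for IDI1 (IDI2-AS1) it was 10.4% to 15.4% over all libraries. At 12 h the treated and untreated ranges overlapped for both, except for HMGCS1 in A2780cis, where the treated share was the lower one, and for FDFT1 it was at most 0.601%.

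**Figure D2:**
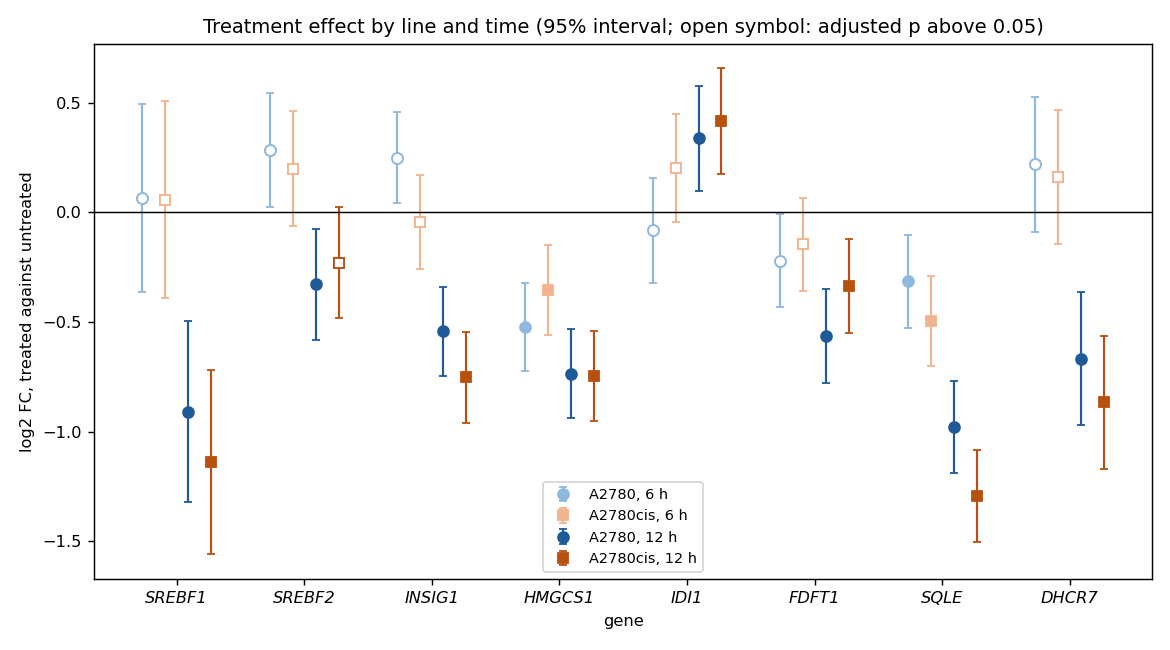
Log2 FC of treated against untreated cells (vertical axis, 95% interval) for each of the 8 genes in A2780 (circles) and A2780cis (squares) at 6 h (light) and 12 h (dark), with open symbols where the adjusted p was above 0.05. At 12 h 7 genes lie below 0 in both lines, from -0.23 for SREBF2 to -1.29 for SQLE in A2780cis, and IDI1 lies above 0, while at 6 h only HMGCS1 and SQLE have filled symbols.

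After 6 h fewer genes had moved. HMGCS1 and SQLE were down-regulated in both lines and no gene was called higher, so that 2 of 8 genes were called lower in each line, where 13.4% of all genes were called lower in A2780 (16% higher) and 16.3% in A2780cis (14.4% higher). Among the genes not called higher, 2 in A2780 (SREBF2 and INSIG1) and 0 in A2780cis had an unadjusted p under 0.05, and DESeq2 called none higher. DESeq2 called 3 genes lower in A2780, with FDFT1 as the added one (adjusted p = 0.0351), where edgeR gave a log2 FC of -0.22 (adjusted p = 0.0986). HMGCS1 went from 169, 178 and 153 CPM to 103, 125 and 119.8 CPM in A2780 (log2 FC -0.52, SE 0.0949, adjusted p = 0.000174), and A2780cis held 90.4, 79.4 and 95.9 against 73.7, 69.4 and 65.1 CPM (log2 FC -0.35, SE 0.0966, adjusted p = 0.0067). SQLE went from 74.6, 71.7 and 73.4 CPM to 54.3, 63.5 and 58.8 CPM in A2780 (log2 FC -0.32, SE 0.0994, adjusted p = 0.0186), and A2780cis held 117, 139 and 134 against 95.4, 90.2 and 90.6 CPM (log2 FC -0.50, SE 0.0968, adjusted p = 0.000352). For both genes the treated libraries lay below all untreated ones at this time. The SQLE call in A2780 was lost without the first treated (adjusted p = 0.106) or the first untreated replicate (adjusted p = 0.0642). The other genes did not pass, and the values for SREBF1 were log2 FC 0.06 in both lines (95% intervals -0.36 to 0.49 and -0.39 to 0.51). Libraries without overlap were seen for 4 genes in A2780 and 2 in A2780cis, beside 41.6% and 43.2% of all genes.

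The difference between the treatment effects at 12 h and 6 h was tested directly. It was negative and passed the test for 5 of 8 genes in A2780 (SREBF1, SREBF2, INSIG1, SQLE and DHCR7) and for 5 in A2780cis (SREBF1, INSIG1, HMGCS1, SQLE and DHCR7), beside 23.7% and 24% of all genes called in either direction. For INSIG1 the log2 FC at 12 h was lower than that at 6 h by 0.79 in A2780 (a difference of -0.79, SE 0.137, adjusted p = 0.000212) and for SQLE in A2780cis the difference was -0.80 (SE 0.137, adjusted p = 0.000188). HMGCS1 in A2780 (difference -0.21, 95% interval -0.50 to 0.07) and FDFT1 in both lines did not pass, and IDI1 had a positive difference of 0.42 in A2780 that did not pass (adjusted p = 0.0573), while 1 gene had an unadjusted p under 0.05 in that direction and DESeq2 called it. The treated cells of both times were compared with their own untreated libraries, and those untreated libraries changed too.

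Untreated cells were therefore compared between 12 h and 6 h. SREBF1 and SREBF2 were higher at 12 h in both lines, and INSIG1 and DHCR7 passed in A2780cis but not in A2780, a difference between the lines that did not itself pass the test. The libraries of SREBF1 went from 23.9, 34.0 and 41.2 CPM at 6 h to 62.2, 62.7 and 67.6 CPM in A2780 (log2 FC 0.96, SE 0.198, adjusted p = 0.00194), and in A2780cis 21.0, 19.9 and 17.7 CPM at 6 h stood against 40.4, 53.9 and 67.0 CPM (log2 FC 1.46, SE 0.206, adjusted p = 3.32e-05). SREBF2 went from 66.8, 81.7 and 81.2 CPM to 101, 113 and 122 CPM in A2780 (log2 FC 0.56, SE 0.121, adjusted p = 0.00259), and in A2780cis 57.3, 69.3 and 56.4 CPM stood against 71.4, 89.2 and 93.6 CPM (log2 FC 0.48, SE 0.122, adjusted p = 0.00363). The libraries of both genes did not overlap between the times. In all, 2 genes were higher and 3 lower in A2780, where 16.6% and 10.3% of all genes were called, and 4 were higher and 1 lower in A2780cis, where 18% and 21.9% were. Libraries without overlap were found for 6 and 5 of the genes, against 46.1% and 48.9% of all genes.

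Several of the enzymes were lower at 12 h in untreated cells. In A2780 IDI1 fell from 169, 165 and 153 CPM to 112, 104 and 97.1 CPM (log2 FC -0.64, SE 0.113, adjusted p = 0.0008). HMGCS1 fell as well (log2 FC -0.46, SE 0.0942, adjusted p = 0.00186), and so did FDFT1 (log2 FC -0.41, SE 0.10002, adjusted p = 0.00541). SQLE had nearly the same level at both times, with means of 73.2 and 73.6 CPM (log2 FC 0.01, 95% interval -0.20 to 0.21). In A2780cis FDFT1 was called lower (log2 FC -0.26, SE 0.1001, adjusted p = 0.0387), a call that was lost without any 1 of 4 libraries (adjusted p from 0.0725 to 0.176), while INSIG1 (log2 FC 0.42, SE 0.0984, adjusted p = 0.00171) and DHCR7 (log2 FC 0.47, SE 0.143, adjusted p = 0.0117) were higher. The DHCR7 call was lost without the third replicate at 12 h (adjusted p = 0.087) or at 6 h (adjusted p = 0.0501). None of the 8 genes passed the test of whether the change over time differed between the lines, which 0.0296% of all genes (6 of 20240) passed. At an unadjusted p under 0.05 there were 2 genes, HMGCS1 and IDI1, and DESeq2 called 0.

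The change of untreated cells from 6 h to 12 h went with the GC content of genes across the whole table. Over 19889 genes Spearman's rho between exon GC content and the log2 FC was 0.653 in A2780 and 0.668 in A2780cis, a description across genes that share the same libraries. SREBF1 has a GC content of 61.6%, SREBF2 of 57.0% and DHCR7 of 56.3%, while FDFT1 is at 50.5% and INSIG1, IDI1, SQLE and HMGCS1 are between 40.3% and 44.6%. The tested genes in the GC class of SREBF1 (1 of 20 equal classes) had medians of 0.63 and 0.86 (log2 FC, A2780 and A2780cis). Relative to genes of like GC content the log2 FC of SREBF1 was 0.33 and 0.60, that of SREBF2 0.21 and 0.13, that of DHCR7 -0.04 and 0.12, and that of INSIG1 0.34 and 0.68 in A2780 and A2780cis. On that scale HMGCS1 was at -0.21 in A2780 and 0.15 in A2780cis, IDI1 at -0.46 and 0.15, and SQLE at 0.18 and 0.12. In A2780cis the log2 FC of HMGCS1, IDI1 and SQLE was -0.18, -0.14 and -0.17 before, with none of them called. The part of GC content in these changes was not tested. The study states that its barcoded libraries were pooled for sequencing. Whether those of 6 h and 12 h were prepared together is not given in the sources used here, nor is the number of runs. A preparation or run that differed between the times could not be told apart from time in these untreated comparisons. The same holds where treated levels at 12 h are set beside levels at 6 h.

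**Figure D3:**
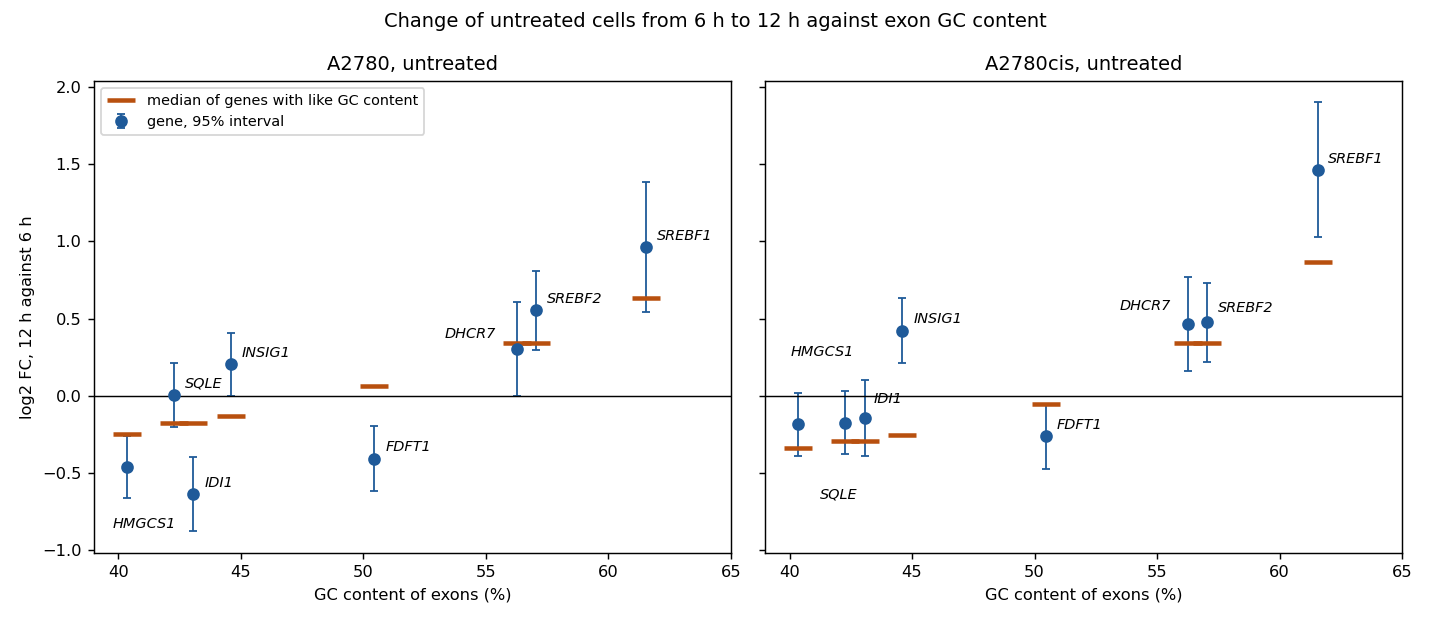
Log2 FC of untreated cells at 12 h against 6 h (vertical axis, 95% interval) for each of the 8 genes (blue) by the GC content of its exons in percent (horizontal axis), with the median of tested genes of like GC content (orange bars), for A2780 (left) and A2780cis (right). SREBF1, at 61.6%, lies highest at 0.96 and 1.46, over class medians of 0.63 and 0.86, and INSIG1 lies above its class median in both lines.

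The treatment effect at 12 h had little relation to GC content (rho 0.0952 in A2780 and 0.155 in A2780cis), and relative to genes of like GC content it was -0.97 and -1.24 for SREBF1 and -0.93 and -1.30 for SQLE. In A2780cis SREBF2 moved on that scale from -0.23 to -0.37 and HMGCS1 from -0.75 to -0.65. At 6 h the relation was stronger (rho 0.473 and 0.336), and relative to genes of like GC content SREBF1 was at -0.42 in A2780 and -0.35 in A2780cis. The 2 genes called at 6 h were nearer to 0 on that scale. HMGCS1 was at -0.35 in A2780 and -0.21 in A2780cis, and SQLE at -0.19 and -0.37. The difference between the effects at 12 h and 6 h was -0.974 for SREBF1 in A2780 and -0.56 relative to genes of like GC content, and in A2780cis it was -1.20 and -0.93. INSIG1 and SQLE kept differences of -0.85 and -0.73 in A2780 and -0.78 and -0.89 in A2780cis on that relative scale. Longer genes had lower log2 FC at 12 h (rho with gene span -0.154 and -0.315). Relative to genes of like span SREBF2 was at -0.28 in A2780 and -0.06 in A2780cis, IDI1 at 0.22 and 0.21, FDFT1 at -0.55 and -0.25, and the other 5 genes between -0.72 and -1.42 in the 2 lines.

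The lines were compared next, since A2780cis is resistant to platinum. For no gene did the treatment effect differ between the lines at 6 h, where 3.07% of all genes did, or at 12 h, where 23.7% did, by the adjusted p. At an unadjusted p under 0.05 INSIG1 passed at 6 h and SQLE at 12 h, and DESeq2 called 0 at either time. The log2 FC of SQLE at 12 h was lower in A2780cis by 0.31 (difference -0.31, 95% interval -0.61 to -0.02, adjusted p = 0.102), and scaled by library size alone it passed (-0.43, adjusted p = 0.0144). The intervals of the other genes at 12 h included 0, from -0.81 to 0.36 for SREBF1 to -0.30 to 0.27 for HMGCS1. A miss of the threshold does not show that the lines responded alike.

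Before treatment the lines had different levels of several genes. SQLE was higher in untreated A2780cis at 6 h (117, 139 and 134 against 74.6, 71.7 and 73.4 CPM, log2 FC 0.82, SE 0.0982, adjusted p = 7.99e-08) and at 12 h (log2 FC 0.64, SE 0.0965, adjusted p = 2.95e-06). IDI1 was lower, at 73.6, 66.2 and 79.9 against 169, 165 and 153 CPM at 6 h (log2 FC -1.15, SE 0.116, adjusted p = 4.29e-09) and with a log2 FC of -0.65 at 12 h (SE 0.114, adjusted p = 2.65e-05). HMGCS1 was lower by 0.91 on the log2 scale at 6 h (log2 FC -0.91, SE 0.096, adjusted p = 8.92e-09) and at 12 h (log2 FC -0.63, SE 0.0948, adjusted p = 2.75e-06). The libraries of the lines did not overlap for these 3 genes at either time. In all, 1 gene was higher and 5 lower at 6 h, where 25% and 22.9% of all genes were called, and 1 was higher and 3 lower at 12 h, where 25.4% and 27.5% were. SREBF2 was lower at both times (log2 FC -0.33, adjusted p = 0.0304, and -0.41, adjusted p = 0.00535), though the call at 6 h was lost without any 1 of 4 libraries (adjusted p from 0.102 to 0.119) and that at 12 h without the first A2780cis replicate (adjusted p = 0.0513). SREBF1 (log2 FC -0.76, SE 0.210, adjusted p = 0.00404) and INSIG1 (log2 FC -0.34, SE 0.1005, adjusted p = 0.00706) were lower in A2780cis at 6 h and did not pass at 12 h.

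Other genes of the pathway were followed as lists, whose counts at 12 h stand beside 28.6% of all genes called higher and 26.1% lower in A2780 and 31% and 28.9% in A2780cis. The lists too were chosen with earlier results of these data known, so their counts are a description. Of 6 further genes of the mevalonate steps, none was called at 12 h in A2780 (edgeR, with 0 at an unadjusted p under 0.05 and 0 by DESeq2), and 1 was higher and 1 lower in A2780cis, with median log2 FC of -0.0541 and -0.0465. FDPS, which makes farnesyl diphosphate, was at 282 CPM without and 255 CPM with treatment in A2780 (log2 FC -0.15, adjusted p = 0.243) and rose from 193 to 250 CPM in A2780cis (log2 FC 0.38, SE 0.105, adjusted p = 0.00309). MVK, the mevalonate kinase, was lower in A2780cis (log2 FC -0.46, SE 0.190, adjusted p = 0.0378).

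Of 11 further genes between lanosterol formation and cholesterol, 3 were higher and 4 lower in A2780, and 4 were higher and 4 lower in A2780cis at 12 h (medians -0.164 and 0.187). These were 27.3% and 36.4% of the list in A2780 and 36.4% each way in A2780cis, not far from the shares of all genes. LBR, a sterol reductase that is also a protein of the nuclear envelope, fell from 286 to 167 CPM in A2780 (log2 FC -0.78, SE 0.108, adjusted p = 1.18e-06), with 235 and 116 CPM in A2780cis (log2 FC -1.02, SE 0.109, adjusted p = 1.23e-08). TM7SF2, another enzyme with the same reductase activity, rose from 15.1 to 25.9 CPM (log2 FC 0.78, SE 0.157, adjusted p = 0.000173) and from 18.0 to 45.9 CPM (log2 FC 1.35, SE 0.155, adjusted p = 4.05e-08). The 2 reductases of this step thus moved in opposite directions in both lines. NSDHL, of sterol demethylation, fell in both (log2 FC -0.60, SE 0.101, adjusted p = 1.73e-05, and -0.88, SE 0.102, adjusted p = 4.97e-08).

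Of 9 genes that process or degrade SREBP, 3 were higher and 2 lower in A2780 and 4 higher and 2 lower in A2780cis (medians 0.101 and 0.206), or 33.3% and 22.2% and then 44.4% and 22.2% of the list. FBXW7, part of a ubiquitin ligase that targets nuclear SREBP among many other proteins, was up-regulated in A2780 at 77.3 against 21.5 CPM (log2 FC 1.85, SE 0.0943, adjusted p = 2.25e-14) and in A2780cis at 57.4 against 24.1 CPM (log2 FC 1.25, SE 0.0929, adjusted p = 1.95e-11). It was higher at 6 h as well (log2 FC 1.14 and 0.59). MBTPS2, the site-2 protease that releases SREBP, fell (log2 FC -0.43, SE 0.103, adjusted p = 0.00109, and -0.45, SE 0.105, adjusted p = 0.000703).

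Of 12 SREBP target genes of fatty acid synthesis, 10 were lower and 1 higher in A2780 and 9 lower and 1 higher in A2780cis at 12 h (medians -0.797 and -0.689), so that 83.3% and 75% of the list were lower. ACACA, the acetyl-CoA carboxylase, fell from 284 to 71.4 CPM in A2780 (log2 FC -1.99, SE 0.129, adjusted p = 2.16e-12), with 195 and 60.1 CPM in A2780cis (log2 FC -1.69, SE 0.129, adjusted p = 3.04e-11). ACSL3, a fatty acyl-CoA synthetase, fell as well (log2 FC -1.12, SE 0.112, adjusted p = 5.73e-09, and -1.32, SE 0.115, adjusted p = 3.31e-10). ELOVL6, a fatty acid elongase, fell to 53.6 from 101 CPM in A2780 (log2 FC -0.92, SE 0.0941, adjusted p = 8.78e-09), and ELOVL5, another elongase, fell to 99.4 from 213 CPM in A2780cis (log2 FC -1.10, SE 0.109, adjusted p = 3.73e-09). At 6 h 3 of the 12 genes (25%) were lower and 1 (8.33%) higher in A2780, and 5 (41.7%) were lower and 0 higher in A2780cis. Over all genes at 6 h 13.4% were lower and 16% higher in A2780, and 16.3% lower and 14.4% higher in A2780cis. ME1 had at most 3 counts in any A2780cis library and is given no fold there, and without it the median at 12 h was -0.711. In untreated cells the list went both ways over time, with FASN, the fatty acid synthase, at 80.5 and 182 CPM at 6 h and 12 h in A2780 (log2 FC 1.18, SE 0.304, adjusted p = 0.0073) and 60.8 and 234 CPM in A2780cis (log2 FC 1.95, SE 0.312, adjusted p = 7.28e-05).

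Of 17 genes of sterol storage, transport and efflux, 15 passed the filter, and 5 were higher and 5 lower in A2780 and 3 higher and 6 lower in A2780cis (medians 0.175 and -0.0929), or 33.3% each way and then 20% and 40% of those tested. LRP8 and VLDLR, receptors of the lipoprotein receptor family, were lower at 12 h in A2780 (log2 FC -1.26, SE 0.101, adjusted p = 1.11e-10, and -1.06, SE 0.089, adjusted p = 2.35e-10). LRP8 was also lower in A2780cis (log2 FC -1.12, SE 0.0989, adjusted p = 4.62e-10) and already at 6 h in both lines (log2 FC -1.08 and -1.19). NPC2, which moves cholesterol out of lysosomes, rose in A2780cis from 26.1 to 50.2 CPM (log2 FC 0.94, SE 0.122, adjusted p = 3.27e-07). STARD4 rose in A2780 from 67.0 to 126 CPM (log2 FC 0.91, SE 0.149, adjusted p = 1.27e-05). TMEM97 fell in A2780cis from 96.2 to 67.3 CPM (log2 FC -0.52, SE 0.0824, adjusted p = 6.76e-06). With libraries scaled by their size alone, the counts in A2780 at 12 h became 9 higher and 2 lower for this list, 6 higher and 0 lower for SREBP processing, 5 higher and 2 lower for the later sterol steps and 2 higher for the mevalonate steps, while the fatty acid targets were at 1 higher and 8 lower and the 8 genes at 1 higher and 6 lower.

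**Figure D4:**
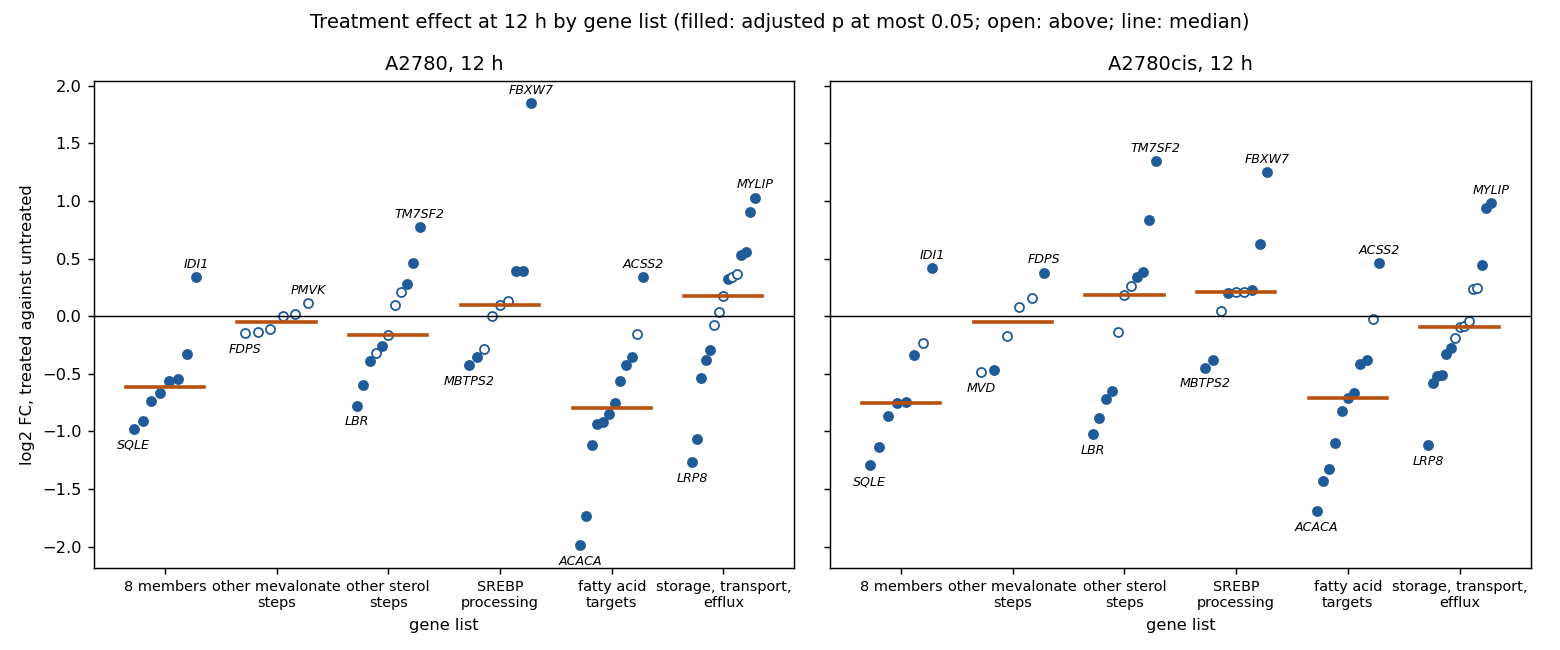
Log2 FC of treated against untreated cells at 12 h (vertical axis) for each gene (points) of the 8 genes and of the 5 lists of related genes, with filled points where the adjusted p was at most 0.05 and the list's median as a line, for A2780 (left) and A2780cis (right, without ME1). The 8 genes (medians -0.616 and -0.75) and the fatty acid targets (-0.797 and -0.711) lie mostly below 0, and the other 4 lists lie on both sides of it.

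Over the 24 libraries the 8 genes did not form a single pattern. Pearson's r of their log2 CPM was above 0 in 22 of 28 pairs, with a median of 0.329, and ranged from -0.559 (IDI1 with SQLE) to 0.842 (SREBF1 with SREBF2). The libraries share groups, depth and base composition effects, so these values are a description. INSIG1 was closest to the mean of the 8 scaled genes (r 0.934) and IDI1 farthest (r 0.304). Of the 12510 genes that averaged 2 or more in log2 CPM, those most like that mean were LARS2 (r 0.9676), SORD (0.9582), ERGIC1 (0.9387), PRPF19 (0.9296) and CHD4 (0.9227), followed by PKP4, SLC1A5, ROBO1, EMC8 and SAE1 (0.9183 to 0.9127). Over the 8 group means LARS2 (0.9792), ENSG00000250135 (0.9768) and SORD (0.9697) led, followed by ENSG00000223343 (0.9622) and ERGIC1 (0.9559).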

How the data were processed

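Total RNA of 24 samples was sequenced from stranded total RNA libraries. Per the labels and the submitters' processing notes, the authors trimmed reads (Trimmomatic), aligned them with STAR 2.5.2b to GRCh38 and counted them per gene with featureCounts. The deposited values are estimated counts: 9.499% to 12.754% of the values in a library were not whole, and reads over several genes could count for each. The strand setting is not given in the sources used here, and the sources differ on single or paired reads. Counts were rounded. Of 63299 gene IDs, 56948 matched GENCODE 44. The main test was edgeR 4.0.16 (R 4.3.3, quasi-likelihood, TMM, 1 coefficient per group, 16 residual degrees of freedom) on the 20240 genes that passed a minimum count of 10 and a minimum total of 15, with Benjamini-Hochberg adjusted p at most 0.05 and 95% intervals. It was tested on simulated data. Treatment effects, untreated changes over time and line differences were contrasts of 1 fit, and comparisons in a line share untreated libraries. Alternatives were DESeq2 1.42.0, its size factors, library size alone, no filter, unrounded counts, compared libraries alone, a replicate block, and each library left out. Subtracting overlapping lncRNA counts and values relative to genes of like GC content or span were added after the data were seen. The members and lists were chosen with earlier results of these data known. Named were all members and, per list, treatment and time comparison, up to 3 called genes with the smallest p, with up to 2 others where fewer were called. Likeness genes followed Pearson's r. Some genes of the pathway and marker lists are not reported here.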

Additional observations from a re-analysis of the deposited data

Results flagged for a closer look

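These results are listed because a test of the difference between 2 effects passed (edgeR, adjusted p at most 0.05). Treatment effects (log2 FC) were lower at 12 h than at 6 h in A2780 for SREBF1 by a difference of -0.974 (SE 0.28, adjusted p = 0.0134), for SREBF2 of -0.6123 (adjusted p = 0.0106), for INSIG1 of -0.7928 (adjusted p = 0.000212), for SQLE of -0.664 (adjusted p = 0.00135) and for DHCR7 of -0.8871 (adjusted p = 0.00263). Without the first treated replicate at 6 h the SREBF1 difference was -0.82 (adjusted p = 0.0512), and with libraries scaled by their size alone the calls of SREBF1 (-0.82, adjusted p = 0.0678) and SREBF2 (-0.46, adjusted p = 0.0937) were lost. In A2780cis the differences were -1.197 for SREBF1 (adjusted p = 0.00398), -0.7071 for INSIG1 (adjusted p = 0.000751), -0.3935 for HMGCS1 (adjusted p = 0.0367), -0.7988 for SQLE (adjusted p = 0.000188) and -1.026 for DHCR7 (adjusted p = 0.000726). The HMGCS1 call was lost without any 1 of 6 libraries (adjusted p from 0.0519 to 0.0949). The time comparisons share the untreated libraries with the comparison of untreated cells between 6 h and 12 h, in which log2 FC followed GC content.

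At 12 h the treatment effect differed between the lines for 12 of the 53 tested genes of the pathway lists (22.6%), close to the 23.7% of all genes called, and for none of the 8 genes. The difference of A2780cis against A2780 was positive for FADS2 (0.9119, adjusted p = 0.000499), INSIG2 (0.9099, adjusted p = 0.00173), VLDLR (0.7878, adjusted p = 0.00014), ERG28 (0.6203, adjusted p = 0.00898) and FDPS (0.5258, adjusted p = 0.0119). It was negative for STARD4 (-0.9464, adjusted p = 0.00192), TMEM97 (-0.6914, adjusted p = 0.000137), NPC1 (-0.6272, adjusted p = 0.00101), FBXW7 (-0.5983, adjusted p = 0.00178), FADS1 (-0.5086, adjusted p = 0.00343), OSBP (-0.4339, adjusted p = 0.0437) and CYP51A1 (-0.3865, adjusted p = 0.0384).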

How the results depend on the processing

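No log2 FC of the 8 genes changed direction in any alternative fit of a called result. Over 104 values each, 102 stayed on their side of the threshold with DESeq2 and with its size factors, 94 with library size alone, 99 without a filter, 101 with only the compared libraries, 104 without rounding and 102 with overlapping lncRNA reads taken off. With each library left out, 827 of 864 stayed, 26 were weaker and 11 stronger. Values relative to genes of like GC content or span have no p-value. Of 104 values each, 36 were flagged as moved in size for GC content and 21 for span. Over all genes, library size alone moved the split of calls to 3782 higher and 2373 lower in A2780cis at 6 h (from 2917 and 3295), 8084 and 3349 in A2780 at 12 h (from 5796 and 5291), 3851 and 1505 in untreated A2780 over time (from 3354 and 2081), and 4686 and 1598 in untreated A2780cis over time (from 3650 and 4433; 3913 and 2414 with only the compared libraries, 3880 and 2656 without a filter). The number of the 8 genes called changed by more than 1.5 times in these cases. In A2780 at 6 h it became 1 higher with library size alone and 1 lower without a filter, and in A2780cis at 6 h 1 higher with library size alone. For untreated A2780cis over time it became 0 lower with only the compared libraries, with library size alone and without a filter. The line difference at 12 h became 1 lower with library size alone. For A2780 at 12 h against 6 h it became 1 higher (IDI1) with DESeq2, its size factors, only the compared libraries or library size alone, and 3 lower with the latter. Deviations from the group mean had a median r of 0.00847 over 84 pairs of libraries with the same replicate number (from -0.29 to 0.438). Over 168 pairs with other numbers the median r was -0.00518 (from -0.486 to 0.358). An r over 0.1 was found in 23 of the same-numbered pairs and 36 of the others. Whether equal numbers mark a shared culture or day is not known. With the replicate number as a block 1 gene (SREBF2) was called higher in A2780 at 6 h and 1 (IDI1) in A2780 at 12 h against 6 h. No other count changed by over 1.5 times with it. With each library left out the counts ranged in A2780 from 0 to 1 higher and 1 to 2 lower at 6 h, 0 to 1 higher and 6 to 7 lower at 12 h, and 0 to 1 higher and 4 to 6 lower at 12 h against 6 h. In A2780cis they ranged from 0 to 1 higher and 5 to 7 lower at 12 h and from 3 to 4 higher and 0 to 1 lower for untreated cells over time, and for the untreated lines at 12 h from 1 to 2 higher. The causes were not tested.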
